A study of Mus musculus with 23 samples.

Results

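The genes described here are 10 components of the junctions that join heart cells: the connexins Gja1, Gja4, Gja5 and Gjc1, the scaffold gene Tjp1, the desmosomal genes Dsp, Jup, Pkp2 and Dsg2, and the cadherin Cdh2. They were chosen by symbol from a table of 46077 genes measured by RNA sequencing in 23 libraries of male mouse hearts. No rule on measured values picked them, but earlier results of these data were known. Panx1 encodes a pannexin, a protein of ATP-permeable plasma membrane channels, and the question put to these genes was whether other junction genes change when Panx1 is lost from cardiomyocytes.

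Floxed control mice are labelled Panx1fl/fl, and knockout mice Panx1myhc6, after the alpha-myosin heavy chain gene Myh6 whose promoter is active in cardiomyocytes. Cells of other types are not targets of such a driver and can keep Panx1. The labels do not say whether the controls carried a Cre transgene. Isolated cardiomyocytes came from floxed (n = 3) and knockout (n = 3) mice on saline, and from floxed (n = 4) and knockout (n = 4) mice on isoproterenol, a beta-adrenergic agonist given at 15 mg/kg/day for 14 days. Whole hearts came from isoproterenol-treated mice labelled floxed (n = 5) and knockout (n = 4). Ages, and whether a library is 1 animal, are not given, so p-values measure the spread between libraries. Column headings give the genotype, and the heading WHO was taken to mean whole heart. The other headings give the treatment but no tissue, and their columns were taken to be the cardiomyocyte libraries.

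Cardiomyocytes are joined end to end at intercalated discs. There, connexins assemble into gap junction channels that pass current and small molecules between cells, desmosomes anchor the intermediate filaments, and adherens junctions anchor the contractile filaments. Cx43, the product of Gja1, is the main connexin of working ventricular muscle, Cx40 (Gja5) is found in atrial muscle, conduction tissue and arterial endothelium, Cx45 (Gjc1) in nodal tissue, and Cx37 (Gja4) in endothelium.

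Libraries held 21.0 to 39.6 M reads assigned to genes, of which 46.8 to 80.0% were mitochondrial in cardiomyocyte libraries and 16.7 to 25.4% in whole hearts. Levels are FPKM, fragments scaled to gene length and library size, with a scaling between libraries that the deposited values already carry. Differences are of log2(FPKM + 1), with their standard error (SE) from limma, and genes with an adjusted p under 0.05 are termed called. Panx1 (chromosome 9, 15005161 to 15045478, minus strand) averaged 2.21 FPKM in floxed and 1.67 in knockout saline cardiomyocytes (exact permutation p = 0.3, two-sided; the smallest possible is 0.1). After isoproterenol the means were 1.55 and 1.04 FPKM (exact permutation p = 0.0286, the smallest possible). In whole hearts Panx1 went against the labels, at 0.651 FPKM in hearts labelled knockout and 0.412 in hearts labelled floxed (exact permutation p = 0.0317), so whole-heart directions below refer to the labels.

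The labelled cell type was checked with its markers. Summed over 6 cardiomyocyte markers (Myh6, Tnnt2, Actc1, Ryr2, Tnni3 and Myl2), cardiomyocyte libraries reached 871 to 2667 FPKM after saline and 1927 to 8241 after isoproterenol, against 6172 to 12789 in whole hearts. None of the 6 was at 0 in any library. Markers of most other cell types were higher in the cardiomyocyte preparations than in whole hearts: 6 endothelial markers summed to 174 to 313 FPKM after isoproterenol against 72.3 to 90.1, and 5 fibroblast markers to 326 to 692 against 171 to 401. The 5 smooth muscle and pericyte markers went the other way in their median, with sums of 82.4 to 180.2 FPKM (median 139) against 139.8 to 307.7 (median 152). In bulk samples fewer cells of a type and less RNA per cell cannot be told apart.

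Upstream sequence is shown for 4 of the genes, to let the connexins and the desmosomal genes be read side by side. They are the connexins Gja1 and Gja4, and Dsp and Jup, desmosomal partners with unlike patterns. On saline Gja1, Gja4 and Dsp were higher in knockout libraries without overlap, as were Pkp2 and Gja5 and 11.9% of all genes tested. RefSeq (build GRCm38.p6) gave promoter entries for 6 of the 10 genes. Each line is the 250 bases before the annotated start, 5′ to 3′ on the gene's strand. Capitals mark matches, on either strand, to 6 motifs that were searched: the TATA motif TATAAA, the GC box GGGCGG, the cyclic AMP response motif TGACG, the AP-1 site TGACTCA, the GATA site AGATAA and the E-box CACGTG.
Gja1, chr10:56377050-56377299, plus strand: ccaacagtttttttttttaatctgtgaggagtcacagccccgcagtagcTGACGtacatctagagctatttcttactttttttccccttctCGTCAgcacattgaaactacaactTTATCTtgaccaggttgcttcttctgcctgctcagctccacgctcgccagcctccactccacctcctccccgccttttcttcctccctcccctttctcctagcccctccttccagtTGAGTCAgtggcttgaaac
Gja4, chr4:127314040-127314289, minus strand: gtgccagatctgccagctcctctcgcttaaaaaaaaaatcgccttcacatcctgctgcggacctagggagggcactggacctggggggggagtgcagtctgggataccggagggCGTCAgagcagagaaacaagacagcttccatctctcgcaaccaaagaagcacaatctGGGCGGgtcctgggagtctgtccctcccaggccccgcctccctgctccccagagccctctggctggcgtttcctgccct
Dsp, chr13:38151044-38151293, plus strand: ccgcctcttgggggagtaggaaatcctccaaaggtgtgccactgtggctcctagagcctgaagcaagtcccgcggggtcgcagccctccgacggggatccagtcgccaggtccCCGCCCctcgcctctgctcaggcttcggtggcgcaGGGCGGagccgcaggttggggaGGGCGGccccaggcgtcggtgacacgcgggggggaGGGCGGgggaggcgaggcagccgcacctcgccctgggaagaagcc
Jup, chr11:100397791-100398040, minus strand: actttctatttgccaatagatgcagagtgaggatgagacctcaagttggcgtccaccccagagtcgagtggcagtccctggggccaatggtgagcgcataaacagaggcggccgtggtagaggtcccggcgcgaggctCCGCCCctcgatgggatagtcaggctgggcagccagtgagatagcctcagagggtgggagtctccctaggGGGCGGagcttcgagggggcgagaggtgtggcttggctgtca

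In the Gja1 window 2 cyclic AMP response motifs (at -201 and -159, counted from the annotated start), 1 AP-1 site (-19) and 1 GATA site (-135) were found, and no GC box. Gja4 had 1 GC box (-79) and 1 cyclic AMP response motif (-136). Dsp had 4 GC boxes and Jup 2, and neither held another of the searched motifs. Of all 32851 promoter windows of this length, 32.7% held a GC box, 17.8% the cyclic AMP response motif, 4.46% the AP-1 site, 9.99% the GATA site, 12.4% the TATA motif and 6.02% the E-box. GC made up 50.0% of the Gja1 window, 61.2% of Gja4, 62.0% of Jup and 72.4% of Dsp. A match describes the letters only.

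Gja1 was the most abundant of the 10 genes in 5 of the 6 groups, and its share of the summed FPKM of the connexin family ran from 54.0 to 85.3% over the 23 libraries. In floxed saline cardiomyocytes the order of mean FPKM was Gja1 (25.1), Jup (20.0), Tjp1 (9.76), Dsp (9.63), Gja4 (3.06), Pkp2 (2.83), Cdh2 (2.05), Gjc1 (1.60), Dsg2 (1.47) and Gja5 (0.458). The library ranges of Gja1 and Jup overlapped, as did those of Tjp1 and Dsp and of each neighbouring pair from Gja4 down to Dsg2. In whole hearts labelled floxed the order was different: Gja1 (68.8 FPKM) was followed by Dsp (61.3), Jup (26.6), Cdh2 (21.8) and Pkp2 (21.5), ahead of Tjp1 (6.39), Dsg2 (6.19), Gja4 (5.12), Gjc1 (2.49) and Gja5 (1.53). After isoproterenol Jup led in floxed cardiomyocytes, at 36.7 FPKM against 31.9 for Gja1, with overlapping ranges. Of the 20 connexin genes in the table, 9 reached 1 FPKM in at least 1 library and 11 did not.

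**Figure D1:**
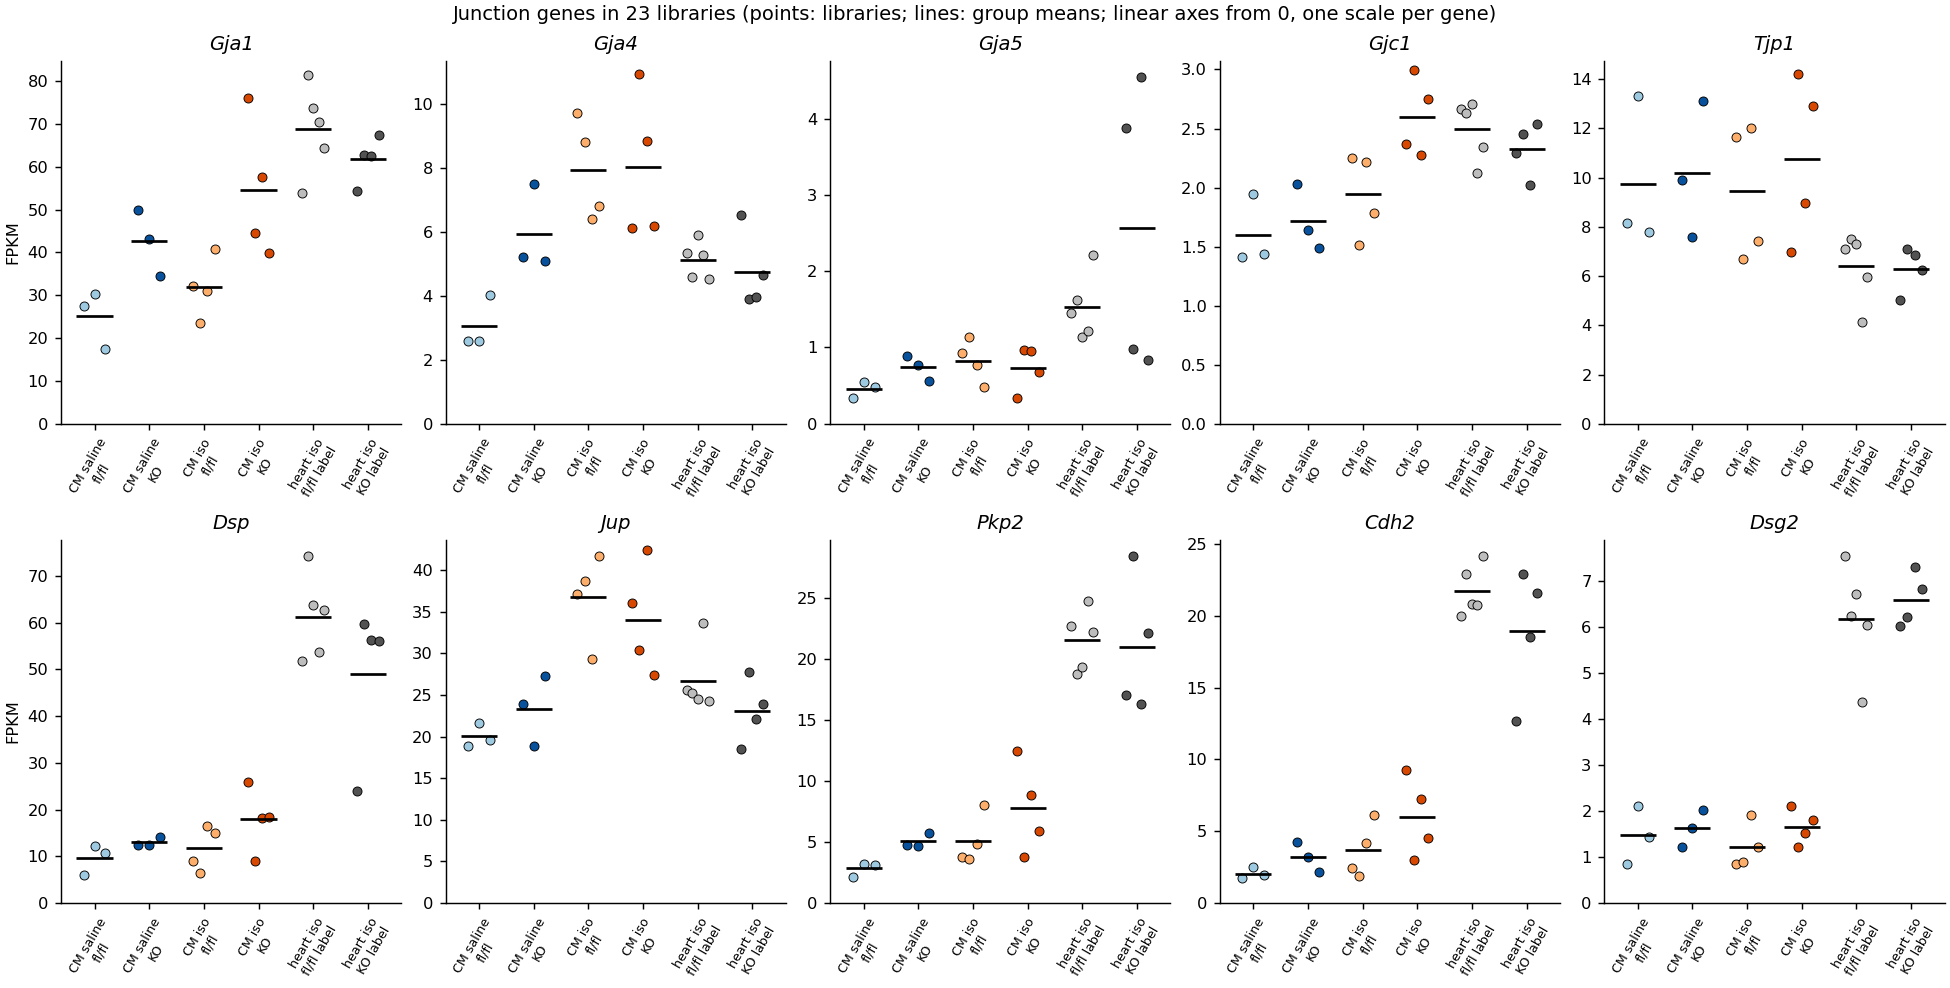
FPKM of the 10 junction genes in each of 23 libraries (points), with the group mean (line), on linear axes that start at 0 and differ between genes. Dsp, Pkp2, Cdh2 and Dsg2 sit far higher in whole hearts than in cardiomyocyte (CM) libraries, whereas Gja1 is higher in knockout (KO) than in floxed (fl/fl) cardiomyocytes on both treatments (iso, isoproterenol).

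Among genotype comparisons, Gja1 (chromosome 10, 56377300 to 56390419, plus strand) differed most evenly between the treatments. On saline the 3 floxed libraries held 17.6, 27.4 and 30.2 FPKM and the 3 knockout libraries 34.5, 43.2 and 49.9 FPKM. After isoproterenol the values were 23.6, 31.0, 32.1 and 40.9 FPKM in floxed and 39.8, 44.5, 57.7 and 76.1 FPKM in knockout libraries. The saline groups did not overlap, and the isoproterenol groups overlapped only at 39.8 and 40.9 FPKM. The means were 25.1 ± 6.6 and 42.6 ± 7.7 FPKM (SD, n = 3 each), 1.70-fold, and 31.9 ± 7.1 and 54.5 ± 16.3 FPKM (SD, n = 4 each), 1.71-fold. The log2 differences were 0.76 ± 0.29 (SE) on saline and 0.74 ± 0.25 on isoproterenol. Their mean, 0.75 ± 0.19, ranked 14 of 11919 genes by limma and did not pass (adjusted p = 0.55). Leaving out any 1 cardiomyocyte library kept this mean between 0.64 and 0.82. The same libraries differed in cardiomyocyte marker levels on saline, where the 6 markers summed to 871 to 1619 FPKM in floxed and 2308 to 2667 in knockout libraries. After isoproterenol the sums overlapped, at 2151 to 6286 and 1927 to 8241 FPKM. None of the 6 markers was called between genotypes on either treatment. With the marker score as a covariate, an alternative chosen after seeing the data, the mean Gja1 difference was 0.52 ± 0.19 (adjusted p = 0.944).

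Gja4 (chromosome 4, 127311421 to 127314039, minus strand) had genotype values apart on saline and intermingled after isoproterenol, and limma called neither. Floxed saline libraries held 2.57, 2.58 and 4.04 FPKM and knockout saline libraries 5.09, 5.22 and 7.50 FPKM, without overlap. After isoproterenol floxed libraries ranged from 6.40 to 9.72 FPKM and knockout libraries from 6.10 to 10.9 FPKM. The log2 difference was 0.77 ± 0.24 on saline (adjusted p = 0.895) and -0.0056 ± 0.21 after isoproterenol (adjusted p = 1). Levels rested on 107 to 409 reads in cardiomyocyte libraries.

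Of the other connexins and Tjp1, none passed the test between genotypes. Gjc1 (chromosome 11, 102799579 to 102819700, minus strand) held 1.42 to 1.94 FPKM in floxed and 1.49 to 2.03 FPKM in knockout saline libraries. After isoproterenol it held 1.51, 1.78, 2.22 and 2.25 FPKM in floxed and 2.27, 2.37, 2.75 and 2.99 FPKM in knockout libraries, which did not overlap. That Gjc1 difference was 0.29 ± 0.13 (adjusted p = 0.797). Gja5 (chromosome 3, 96904693 to 97077416, plus strand) rested on 27 to 132 reads and passed 1 FPKM in 1 of 14 cardiomyocyte libraries, so it was not tested there. Its saline values were 0.335 to 0.554 FPKM in floxed and 0.558 to 0.891 FPKM in knockout libraries, and after isoproterenol the groups overlapped. Tjp1 (chromosome 7, 65296165 to 65371239, minus strand), which encodes ZO-1, a scaffold that binds connexins, averaged 9.76 ± 3.09 and 10.2 ± 2.8 FPKM on saline (SD, n = 3 each), with a difference of 0.07 ± 0.30 on saline and 0.16 ± 0.26 after isoproterenol.

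Desmosomal and cadherin transcripts had mostly higher values in knockout than in floxed cardiomyocytes, none past the test. Pkp2 (chromosome 16, 16213318 to 16272712, plus strand), the armadillo protein plakophilin of the desmosomal plaque, held 2.13, 3.12 and 3.23 FPKM in floxed and 4.70, 4.77 and 5.70 FPKM in knockout saline libraries. After isoproterenol the Pkp2 groups overlapped, at 3.61 to 8.0 and 3.77 to 12.5 FPKM. Its differences were 0.67 ± 0.33 and 0.48 ± 0.29, the latter running from 0.24 (without PNXM654) to 0.74 (without PNXM656), with a mean of 0.58 ± 0.22 (adjusted p = 0.55) that was 0.09 ± 0.08 with the marker score as a covariate. Dsp (chromosome 13, 38151328 to 38198577, plus strand), desmoplakin, which ties the plaque to desmin filaments, held 5.99, 10.6 and 12.3 FPKM in floxed and 12.4, 12.4 and 14.1 FPKM in knockout saline libraries, a difference of 0.44 ± 0.38 that ran from 0.17 (without PNXM657) to 0.63 when 1 library was left out. The Dsp difference was 0.57 ± 0.33 after isoproterenol, and the mean of both was 0.50 without and 0.04 with the covariate. Cdh2 (chromosome 18, 16588877 to 16809246, minus strand), N-cadherin, the adhesion molecule of the disc, differed by 0.44 ± 0.36 and 0.58 ± 0.31, and their mean was 0.51 without and 0.03 with the covariate. Dsg2 (chromosome 18, 20558074 to 20604521, plus strand), desmoglein, the desmosomal cadherin, averaged 1.47 and 1.63 FPKM on saline and 1.22 and 1.66 FPKM after isoproterenol. Jup (chromosome 11, 100368958 to 100397763, minus strand), plakoglobin, shared by desmosomes and adherens junctions, differed by 0.20 ± 0.21 on saline and by -0.11 ± 0.19 after isoproterenol.

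**Figure D2:**
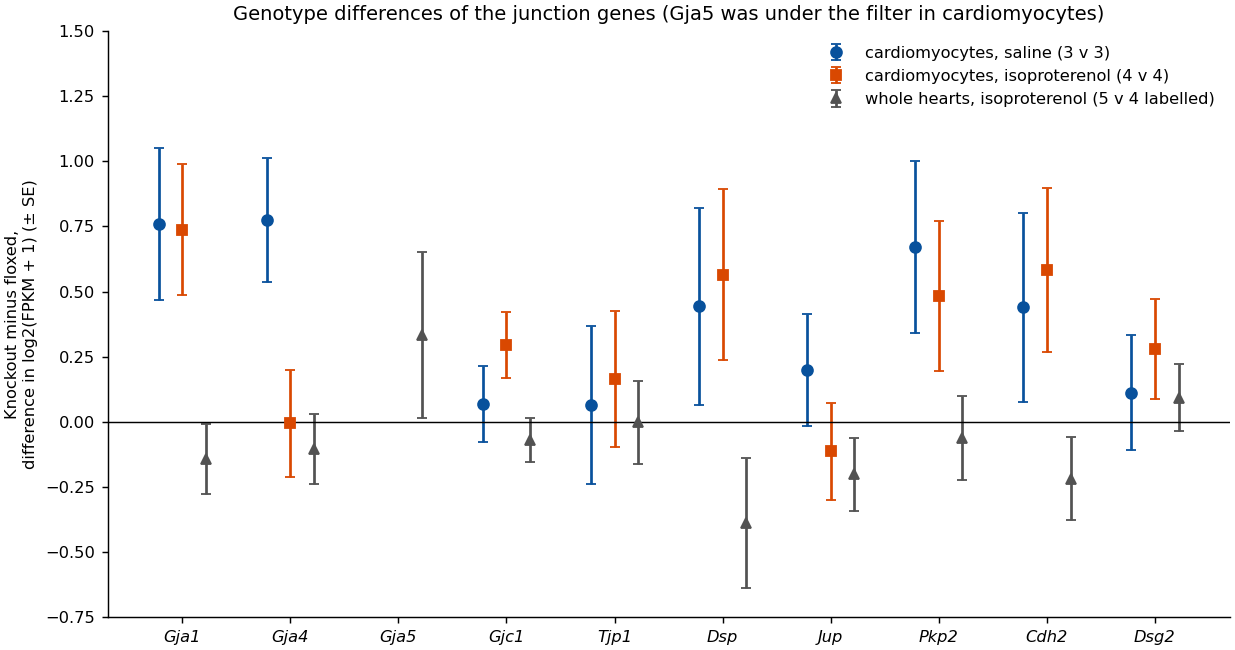
Knockout minus floxed difference in log2(FPKM + 1) for each gene, with standard error bars, in saline cardiomyocytes (circles), isoproterenol cardiomyocytes (squares) and whole hearts by label (triangles). Gja1 lies at 0.76 and 0.74 in cardiomyocytes and at -0.14 in whole hearts, and no difference passed the adjusted test.

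Counted over the set, 9 of 10 genes passed the filter in cardiomyocytes. On saline all 9 fitted differences were above 0 (51.6% of all 11919 genes were), with a median of 0.44 against 0.01 over all genes, and 4 of the 9 (Gja1, Gja4, Dsp and Pkp2) were higher in knockout libraries without overlap (11.9% of all genes). After isoproterenol 7 of 9 were above 0 (51.4% of all genes), with a median of 0.29 against 0.0070, and 1, Gjc1, was higher without overlap (0.873% of all genes). By limma 0 of the 9 were called on saline, 0 on isoproterenol and 0 in the mean, where 0% of all genes were called in each. At an unadjusted p under 0.05 there were 2, 2 and 3 of the 9 (3.53%, 6.20% and 8.77% of all genes), and voom on recovered reads called 0 genes in each. In the mean of both treatments all 9 were above 0 (50.7% of all genes), with a median of 0.38 against 0.0037.

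Other junction genes were described by lists. Of the disc-associated and linker list, which holds proteins that organise or neighbour the disc, 14 of 17 tested genes were above 0 on saline (median 0.53) and 13 of 17 after isoproterenol (median 0.50). The endothelial and tight junction list had 8 of 10 above 0 on saline (median 0.36) and 6 of 10 after isoproterenol (median 0.01). The desmosome list had 7 of 7 above 0 on saline (median 0.44) and 6 of 7 after isoproterenol (median 0.48). The adherens junction list had 7 of 10 and 8 of 10 above 0, with medians of 0.10 and 0.09. The connexin family had 5 of 6 and 3 of 6 above 0 (medians 0.11 and 0.14), and its member Gjb5 differed by -0.56 ± 0.42 and -0.97 ± 0.36. In none of these lists was a gene called. Beside them, all 6 cardiomyocyte markers were above 0 between genotypes on both treatments, with medians of 0.97 and 0.52, and all 6 endothelial markers on saline (median 0.40) and 4 of 6 after isoproterenol (0.08). The part of cell content in these differences was not tested, and the covariate above measures marker RNA only.

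The response to isoproterenol held the only junction gene called among treatment or genotype contrasts. Gja4 rose in floxed cardiomyocytes from 2.57, 2.58 and 4.04 FPKM on saline to 6.40, 6.82, 8.80 and 9.72 FPKM after isoproterenol. Every isoproterenol library lay above every saline library. The mean went from 3.06 ± 0.84 (SD, n = 3) to 7.93 ± 1.59 FPKM (SD, n = 4), 2.59-fold, a log2 difference of 1.14 ± 0.22 (limma, adjusted p = 0.0365). In knockout cardiomyocytes Gja4 was 5.94 ± 1.35 on saline and 8.01 ± 2.32 FPKM after isoproterenol, a difference of 0.36 ± 0.22 (adjusted p = 0.582). The difference between the responses was -0.78 ± 0.31 and did not pass (limma, adjusted p = 1). The call in floxed cells was lost without PNXM657, PNXM661, PNXM644, PNXM647 or PNXM648, where the adjusted p was 0.0762 to 0.175, and the difference stayed between 1.05 and 1.30 when any 1 library was left out. Over all alternatives the adjusted p of Gja4 ran from 0.00313 to 0.218. Endothelial markers moved with it: their sum was 121 to 180 FPKM in floxed saline and 213 to 287 FPKM in floxed isoproterenol libraries, with 6 of 6 above 0 (median 0.76) and 1 called. The 4 arterial endothelial markers other than connexins summed to 14.8 to 21.5 and 24.9 to 43.1 FPKM. Their part in the Gja4 result was not tested.

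Jup came next in the same contrast. It held 18.9, 19.5 and 21.6 FPKM on saline and 29.4, 37.2, 38.7 and 41.7 FPKM after isoproterenol in floxed cells, without overlap, a difference of 0.84 ± 0.20 that missed the threshold (adjusted p = 0.0717). In knockout cells it held 18.8, 23.9 and 27.2 FPKM on saline and 27.4, 30.4, 36.1 and 42.4 FPKM after isoproterenol, again without overlap, a difference of 0.52 ± 0.20 (adjusted p = 0.582). With a filter of 5 FPKM, with array weights or without PNXM645 the floxed Jup difference was called (adjusted p = 0.0492, 0.0224 and 0.04). Without any 1 of the other floxed libraries it was not called (limma, adjusted p = 0.0736 to 0.266). Leaving out 1 library gave differences of 0.77 to 0.94.

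None of the remaining genes passed the test between treatments. Pkp2 differed by 0.62 ± 0.31 in floxed and 0.43 ± 0.31 in knockout cells, Cdh2 by 0.53 ± 0.34 and 0.68 ± 0.34, and Gja1 by 0.34 ± 0.27 and 0.32 ± 0.27. Dsp differed by 0.23 ± 0.35 and 0.35 ± 0.35, Tjp1 by -0.04 ± 0.28 and 0.05 ± 0.28, and Dsg2 by -0.15 ± 0.21 and 0.02 ± 0.21. Gjc1 differed by 0.18 ± 0.14 in floxed and by 0.40 ± 0.14 in knockout cells, where saline (1.49 to 2.03 FPKM) and isoproterenol libraries (2.27 to 2.99 FPKM) did not overlap (adjusted p = 0.582). In floxed cells 1 of 9 tested genes was called (0.705% of all 11919 genes), 2 of 9 had an unadjusted p under 0.05 (24.3%), 7 of 9 were above 0 (54.1%), and 3 (Gja4, Jup and Pkp2) were higher without overlap (11.7%). Cardiomyocyte markers moved with the floxed response: their sums were 871 to 1619 FPKM on saline and 2151 to 6286 FPKM after isoproterenol, without overlap, with 6 of 6 above 0 (median 0.89). In knockout cells the sums were 2308 to 2667 and 1927 to 8241 FPKM, with 6 of 6 above 0 (median 0.67). With the marker score as a covariate the floxed differences were -0.11 for Pkp2, -0.19 for Cdh2 and 0.64 for Jup. In knockout cells limma called 0 of 9 (0% of all genes), with 2 of 9 at an unadjusted p under 0.05 (6.77%) and 0 genes called by voom, 9 of 9 were above 0 (50.6%), and 2 (Gjc1 and Jup) were higher without overlap (3.33%). The difference of the responses gave 0 of 9 (0% of all genes), with 1 of 9, Gja4, at an unadjusted p under 0.05 (2.47%), 5 of 9 above 0 (47.2%), and voom called 0 genes. The 2 responses share no libraries, and each shares its libraries with the genotype comparisons.

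In whole hearts on isoproterenol no junction gene passed the test between genotype labels. Gja1 held 53.8 to 81.5 FPKM (median 70.4) in hearts labelled floxed and 54.4 to 67.4 FPKM (median 62.7) in hearts labelled knockout, a difference of -0.14 ± 0.14. Cdh2 (-0.22 ± 0.16), Jup (-0.20 ± 0.14), Gja4 (-0.11 ± 0.13), Gjc1 (-0.07 ± 0.08), Pkp2 (-0.06 ± 0.16), Tjp1 (-0.0023 ± 0.16) and Dsg2 (0.09 ± 0.13) were within 1.5 standard errors of 0. Dsp held 51.8, 53.8, 62.8, 63.8 and 74.3 FPKM in hearts labelled floxed and 23.9, 56.1, 56.3 and 59.7 FPKM in hearts labelled knockout, a difference of -0.39 ± 0.25 (adjusted p = 0.855) that was -0.083 without PNXM199. By limma 0 of 10 were called (0% of all 10189 genes), 0 of 10 had an unadjusted p under 0.05 (6.40% of all genes), and voom called 0 genes. Above 0 were 2 of 10 (38.2% of all genes), and 0 were higher without overlap (0.756%). The median over the 10 was -0.09, against -0.04 over all genes.

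Gja5 split the hearts labelled knockout. It held 1.14, 1.21, 1.45, 1.62 and 2.21 FPKM in hearts labelled floxed, and 0.835, 0.982, 3.88 and 4.54 FPKM in hearts labelled knockout. The high values came from PNXM199 and PNXM239. These 2 hearts also held the highest sums of the 4 atrial markers Myl7, Sln, Nppa and Myl4, at 5144 and 2559 FPKM, against 79.4 to 1245 FPKM in the other 7. In PNXM229, PNXM241 and PNXM242 the sum was almost all Nppa (631, 78.0 and 222 FPKM). Myl7 was at 0.566, 0.968 and 0.433 FPKM there, and Sln and Myl4 were also under 1 FPKM. In PNXM227, PNXM238, PNXM240 and PNXM230 Myl7 was 74.1 to 308 FPKM. The fitted Gja5 difference was 0.33 ± 0.32 with all 9 hearts and -0.39 without those 2, a setting chosen after seeing the data. How much atrial tissue a heart sample held is not given, and its part in Gja5 was not tested.

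**Figure D3:**
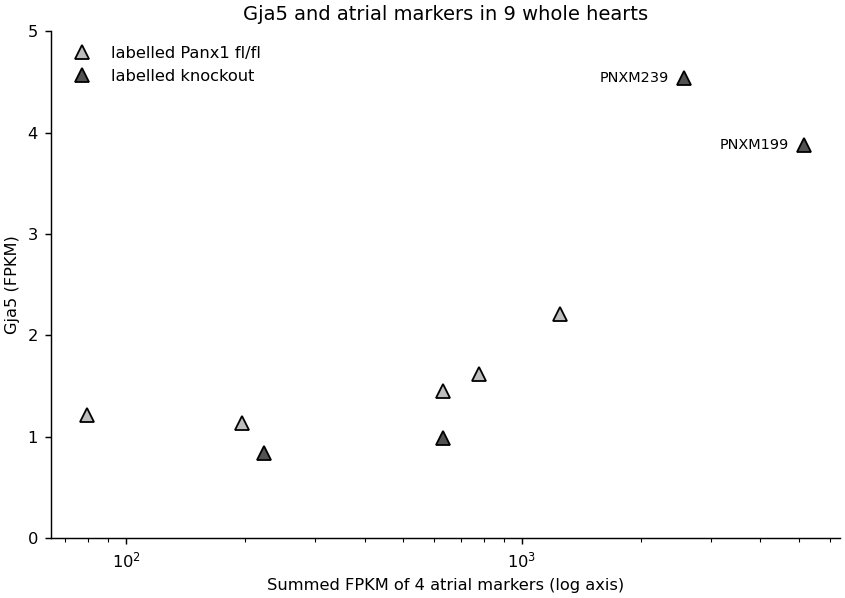
Gja5 in FPKM against the summed FPKM of 4 atrial markers (log axis) in 9 whole hearts, by genotype label. PNXM199 and PNXM239, both labelled knockout, lie at 3.88 and 4.54 FPKM, above the other 7 hearts (0.835 to 2.21 FPKM). In PNXM229, PNXM241 and PNXM242 the marker sum is almost all Nppa.

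The comparison of preparations separated the 10 genes most. Isoproterenol cardiomyocyte libraries (n = 8) were set against whole hearts (n = 9), with each genotype label weighted alike. Cdh2, Dsg2, Pkp2 and Dsp were lower in the cardiomyocyte preparations, and Jup, the remaining adhesion gene, was higher. Cdh2 held 1.89 to 9.28 FPKM (median 4.37) against 12.7 to 24.2 FPKM (median 20.9), a difference of -1.97 ± 0.20 (limma, adjusted p = 3.41e-07). Dsg2 held 0.846 to 2.11 FPKM (median 1.37) against 4.37 to 7.56 (median 6.24), a difference of -1.61 ± 0.11 (adjusted p = 8.21e-09). Pkp2 held 3.61 to 12.5 FPKM (median 5.38) against 16.3 to 28.4 (median 22.1), a difference of -1.67 ± 0.19 (adjusted p = 1.13e-06). These 3 did not overlap between preparations. Dsp held 6.43 to 25.9 FPKM (median 15.7) against 23.9 to 74.3 (median 56.3), a difference of -1.88 ± 0.23 (adjusted p = 2.36e-06), and only its lowest heart, PNXM199, lay under the highest cardiomyocyte library.

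The connexins, Tjp1 and Jup differed in both directions. Gja1 was lower in the cardiomyocyte preparations, at a median of 40.3 FPKM (23.6 to 76.1) against 64.4 (53.8 to 81.5), a difference of -0.66 ± 0.14 (adjusted p = 0.000705). Gja5 was lower too, at a median of 0.850 (0.341 to 1.13) against 1.45 FPKM (0.835 to 4.54), a difference of -0.67 ± 0.20 (adjusted p = 0.00731). The hearts include PNXM199 and PNXM239 (3.88 and 4.54 FPKM), and the difference was not tested without both. The call was lost with array weights (-0.38) and without the scaling between libraries (-0.50). Gja4 was higher, at a median of 7.81 (6.10 to 10.9) against 4.64 FPKM (3.91 to 6.51), a difference of 0.58 ± 0.12 (adjusted p = 0.000558). Gjc1 did not pass, with medians of 2.26 and 2.45 FPKM and a difference of -0.07 ± 0.07 (adjusted p = 0.381). Tjp1 was higher by 0.57 ± 0.16 (adjusted p = 0.004) and Jup by 0.49 ± 0.12 (adjusted p = 0.00157). Without the scaling between libraries, and relative to the median shift of all genes, the Tjp1 difference was 0.33 and that of Jup 0.14, neither called, and the Tjp1 call was also lost in libraries labelled floxed alone (0.48).

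Of the 10 genes 9 were called (68.6% of all genes), the same number had an unadjusted p under 0.05 (71.2%) and 3 were above 0 (45.1%). In the cardiomyocyte preparations 3 were called higher and 6 lower, where 31.1% of all 11386 genes were called higher and 37.4% lower. The median over the 10 was -0.66, against -0.08 over all genes, 3 were lower without overlap (13.3% of all genes) and 0 higher (13.4%). The junction lists, which include some of the 10 genes, split in the same contrast. Of 7 tested desmosomal genes 5 were called lower, with Dsp, Pkp2 and Dsg2 among them, and 1, Jup, higher. Outside the 10 genes, those called lower were Dsc2 (-1.54 ± 0.15), a desmosomal cadherin, and Perp (-1.87 ± 0.26), a desmosomal membrane protein. Pkp4 was not called (-0.20 ± 0.14). The disc-associated and linker list had 13 of 19 called lower and 2 higher, among the lower ones Tmem65 (-1.43 ± 0.13) and the membrane adaptors Ank2 (-0.99 ± 0.10) and Ank3 (-0.84 ± 0.08). Of 11 adherens junction genes 6 were called lower, with Cdh2 and the alpha-catenins Ctnna1 (-0.93 ± 0.10) and Ctnna3 (-0.94 ± 0.13) among them. In that list 3 were called higher, such as Mllt4 (1.18 ± 0.14), which encodes afadin. The endothelial and tight junction list had 8 of 10 called higher, with the endothelial cadherin Cdh5 at 1.75 ± 0.12, Esam at 1.48 ± 0.14 and Cldn5 at 1.57 ± 0.23, and 1 lower, Mpp7 (-0.46 ± 0.08), named after its value was seen. Gja3 (-1.88 ± 0.11), another connexin, was lower. In the same contrast 5 of 6 cardiomyocyte markers were called lower (median -1.26), 6 of 6 endothelial markers higher (median 1.48) and 5 of 5 fibroblast markers higher (median 1.04). Of 5 smooth muscle and pericyte markers 3 were called lower and 1 higher (median -1.50), and all markers of macrophages (4), neutrophils (4), erythroid cells (3) and mesothelium (5) were called higher. Tissue and preparation cannot be told apart in this design.

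**Figure D4:**
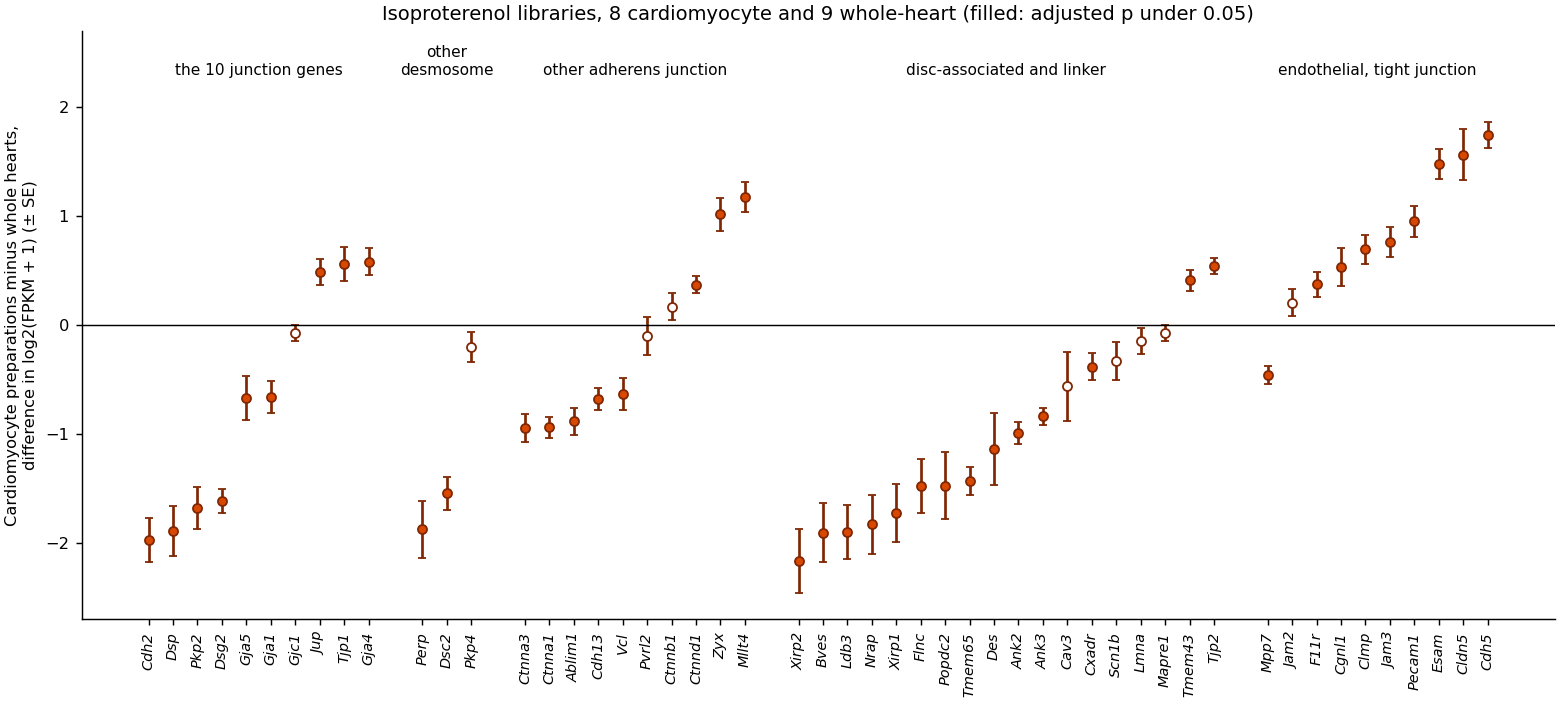
Difference in log2(FPKM + 1) between isoproterenol cardiomyocyte preparations (n = 8) and whole hearts (n = 9) for the 10 junction genes and for other tested genes of 4 junction lists, with standard error bars and filled points for an adjusted p under 0.05. Cdh2 (-1.97) lies lowest of the 10 and Gja4 (0.58) highest, and Cdh5 (1.75) lies highest of the endothelial and tight junction list.

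Across the 14 cardiomyocyte libraries the 10 genes followed the cardiomyocyte marker score, the mean log2(FPKM + 1) of the 6 markers, to very different degrees. The score ran from 6.32 to 9.26, and 10 relations were computed. Pkp2 followed it most closely (Pearson r = 0.99, permutation p = 1e-05, the smallest the resampling can give, adjusted p = 5e-05; Spearman rho = 0.99, p = 1e-05). Its r was 0.98 without the 2 libraries farthest from the median score, 0.98 over the 11 libraries with the lowest scores and 0.99 within groups. Cdh2 followed with r = 0.92 (permutation p = 1e-05, adjusted p = 5e-05; rho = 0.88, p = 0.00016) and r = 0.88 without the 2 farthest and within groups, and Dsp with r = 0.84 (permutation p = 0.00025, adjusted p = 0.00083; rho = 0.91, p = 2e-05), 0.67 without the 2 farthest and 0.83 within groups. Gja1 had r = 0.75 (permutation p = 0.002, adjusted p = 0.0049; rho = 0.73, p = 0.0041), 0.63 without the 2 farthest and 0.59 within groups. Jup had r = 0.68 (permutation p = 0.007, adjusted p = 0.014; rho = 0.56, p = 0.043, adjusted p = 0.085), 0.60 without the 2 farthest and 0.53 within groups. Over the 11 libraries with the lowest scores r was 0.77 for Dsp, 0.73 for Cdh2, 0.51 for Gja1 and 0.40 for Jup.

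No relation passed for Gja4 (r = 0.43, permutation p = 0.13; rho = 0.31, p = 0.29), Dsg2 (r = 0.41, p = 0.14; rho = 0.38, p = 0.18), Gjc1 (r = 0.39, p = 0.17; rho = 0.53, p = 0.052), Tjp1 (r = -0.22, p = 0.45; rho = -0.16, p = 0.59) or Gja5 (r = -0.05, p = 0.87; rho = -0.02, p = 0.96). Without the 2 farthest libraries these r values were 0.30, 0.05, 0.15, -0.20 and -0.06 in that order. Over the 11 libraries with the lowest scores they were 0.52, 0.48, 0.44, 0.39 and 0.49, close to Gja1 (0.51) and Jup (0.40). Within groups r was -0.44 for Gja4, 0.52 for Dsg2, -0.29 for Gjc1, -0.42 for Tjp1 and -0.62 for Gja5. Groups hold 3 or 4 libraries, too few for a value of their own.

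**Figure D5:**
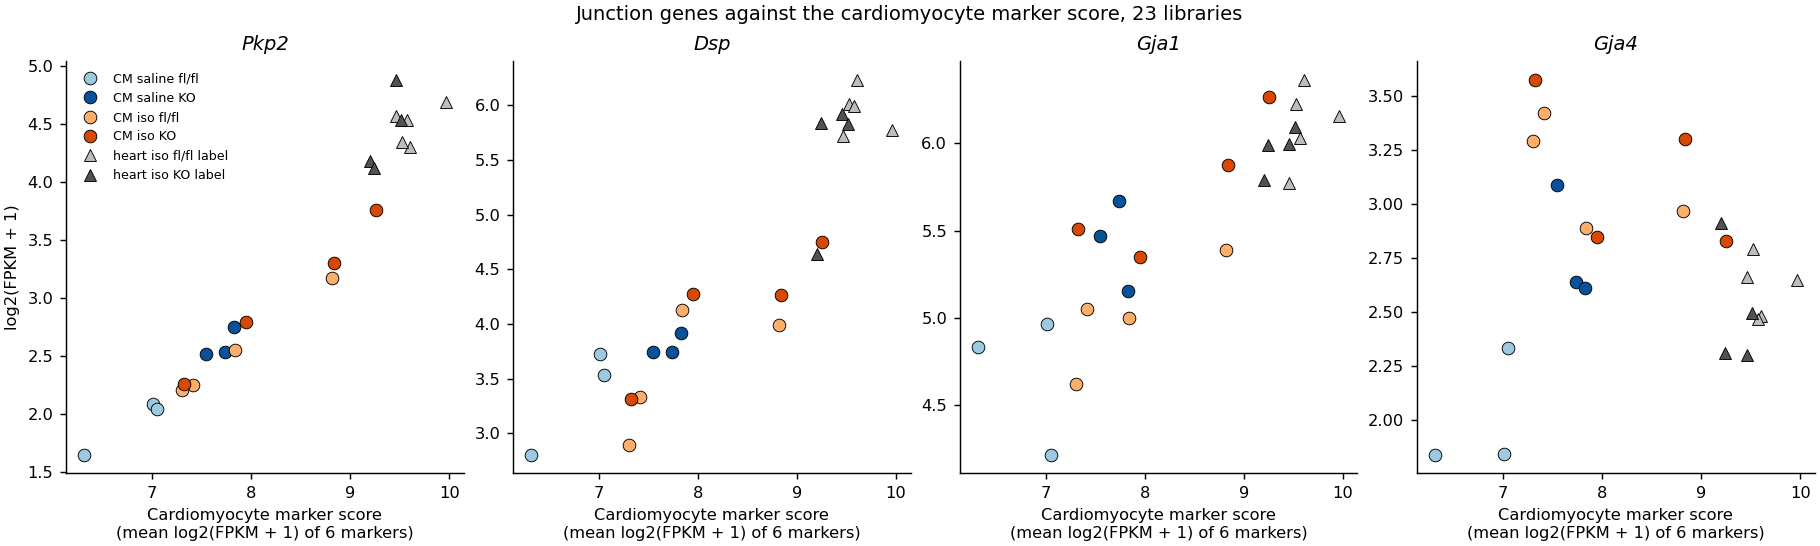
log2(FPKM + 1) of Pkp2, Dsp, Gja1 and Gja4 against the cardiomyocyte marker score in 23 libraries, cardiomyocyte preparations (CM, circles) and whole hearts (triangles) coloured by group. Pkp2 climbs with the score (r = 0.99 over the 14 cardiomyocyte libraries), and the same r for Gja4 is 0.43.

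Genes whose log2(FPKM + 1) was most like that of each connexin and of Dsp over the 14 cardiomyocyte libraries, among about 11919 tested genes, are given by Pearson r as a description. The points share a preparation, and depth and cell type marker levels vary with them. For Gja1 they were Nceh1 (0.95), Mal (0.92), Igfals (0.91), Kcnj2 (0.91) and Fam134b (0.90). For Gja4 they were Ramp2 (0.96), Ly6a (0.96), Chst7 (0.94), Colec11 (0.93) and Eng (0.92), and for Gja5 Igfbp7 (0.85), Hey1 (0.83), St3gal2 (0.83) and Angpt2 (0.81). Gjc1 was most like Ptprm (0.93), Clic5 (0.91), S1pr3 (0.91), Steap4 (0.90) and Adgrl2 (0.90), and Dsp most like Aldh5a1 (0.98), Cmya5 (0.98), Acadsb (0.98), Myom2 (0.97) and Ccdc141 (0.96). Among the 10 genes themselves the highest pairs were Pkp2 with Cdh2 (0.91), Dsp with Pkp2 (0.87), Dsp with Cdh2 (0.84) and Gja1 with Cdh2 (0.84). Gja4 was closer to Gja5 (0.71) and Jup (0.68) than to Gja1 (0.35).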

How the data were processed

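The deposited table gives FPKM per gene, which the authors made from featureCounts counts of HISAT2 2.0.5 alignments, per the submitters' processing notes; 1 misaligned line was left out and 27 symbols stored as dates were restored. The genome build, not given in the sources used here, was checked: coordinates are the table's, and 99.9% of 45142 shared identifiers overlap GENCODE M21 on GRCm38. Strand use is not given, so reads of Gja5, Dsp and Dsg2 could include reads of antisense genes over 2.87, 5.17 and 3.99% of their exon bases. All 392415 values checked were within 0.1 of a whole read. Assigned reads were 21.0 to 39.6 M per library, and counts limit precision for Gja5 (27 to 132 reads in cardiomyocytes).

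limma 3.58.1 (R 4.3.3) with a trend was run two-sided on log2(FPKM + 1), with Benjamini-Hochberg adjustment over all genes, in 3 fits: 14 cardiomyocyte libraries (FPKM at least 1 in 3), 9 whole hearts (in 4) and 17 isoproterenol libraries (in 4). The procedure was tested on simulated data. Correlations used 100000 permutations, and Panx1 exact permutation (scipy 1.17.1). Columns carry no replicate number. The genes, lists and markers were chosen with earlier results of these data known. All 10 genes are named in each comparison; of other lists up to 4 genes with the smallest p may be named, and the 5 genes most alike; some genes that this rule names are not reported here. The settings varied were the pseudocount (0.1, 0.5), the filter (none, 5 FPKM), 3 scalings, voom on recovered reads, array weights, fits of fewer groups and leaving out each library; the marker score covariate and leaving out PNXM199 and PNXM239 were chosen after seeing the data.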

Additional observations from a re-analysis of the deposited data

Results flagged for a closer look

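Of 40 group values of single genes checked (groups of 4 or 5 libraries), 2 held a library far from the others, and chance gives about 1 in 20. Dsp was 23.9 FPKM in PNXM199, a heart labelled knockout, where the other 3 of its group held 56.1 to 59.7 FPKM. Jup was 33.6 FPKM in PNXM241, a heart labelled floxed, where the other 4 held 24.3 to 25.6 FPKM.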

How the results depend on the processing

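No paired analysis was possible because the columns carry no replicate numbers. In floxed cardiomyocytes the count of junction genes called after isoproterenol was 1. It was 0 with no filter, with equal totals outside the mitochondrial chromosome, without the scaling between libraries, in a fit of only the groups compared and with the marker score as a covariate, and 2 with a filter of 5 FPKM or array weights, and leaving out 1 library gave 0 to 2. Over all genes the count of 84 became 21 without the scaling, 34 with equal totals, 2 in the fit of the groups compared, 7 with the covariate, 129 with the 5 FPKM filter and 1262 with array weights, and 0 to 222 when leaving out 1 library. Without the scaling the all-gene median moved by -0.70 in the saline and 0.56 in the isoproterenol genotype difference, -0.82 and 0.44 in the floxed and knockout responses, 1.29 in the interaction, 0.13 in whole hearts and -0.86 between preparations, and values below are relative to that shift. Over all genes the counts of 0 became 10 with no filter and 8 without the scaling in the saline and 4 without the scaling in the isoproterenol genotype difference, 22 without the scaling and 16 with array weights in the interaction, and 6 with array weights in whole hearts; leaving out 1 library gave at most 2. Between preparations 7806 became 4170 with the 5 FPKM filter, which tests fewer genes. The counts of called junction genes in the other comparisons stayed within 1.5 times.

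All differences that changed sign were uncalled under both settings, and the cause was not tested. In whole hearts Tjp1 became 0.00033 with a pseudocount of 0.1 and 0.0021 by voom. With equal totals the values were 0.10 (Gja4) and 0.0031 (Jup) in the isoproterenol genotype difference, 0.043 (Gja1) in the interaction, and 0.077 (Tjp1) and 0.030 (Pkp2) in whole hearts. Without the scaling they were -0.11 (Tjp1) and -0.042 (Jup) in the saline, 0.15 (Gja4) and 0.15 (Jup) in the isoproterenol and -0.015 (Jup) in the mean genotype difference. They were 0.11 (Dsg2) in the floxed and -0.063 (Dsg2) in the knockout response, 0.46 (Gja1), -0.038 (Gjc1), 0.16 (Jup) and -0.20 (Dsg2) in the interaction, and 0.012 (Tjp1) in whole hearts. With array weights they were -0.041 (Gjc1), -0.18 (Tjp1) and -0.086 (Dsg2) in the saline and -0.064 (Tjp1) and -0.012 (Jup) in the mean genotype difference, -0.13 (Dsp) in the floxed and -0.0065 (Dsg2) in the knockout response, 0.0089 (Pkp2) in the interaction, and -0.20 (Gja5) and 0.18 (Pkp2) in whole hearts. With the covariate they were -0.16 (Dsp), -0.19 (Cdh2) and -0.095 (Dsg2) in the saline, 0.098 (Gja4) in the isoproterenol and -0.090 (Jup) in the mean genotype difference. They were 0.23 (Tjp1), -0.46 (Dsp), -0.11 (Pkp2) and -0.19 (Cdh2) in the floxed and -0.068 (Dsp), -0.0089 (Pkp2) and -0.13 (Dsg2) in the knockout response, 0.11 (Gja1), -0.010 (Tjp1) and 0.10 (Pkp2) in the interaction, and -0.19 (Gja5), 0.069 (Jup), 0.18 (Pkp2) and -0.14 (Dsg2) in whole hearts. Without PNXM199 and PNXM239 whole-heart values were -0.39 (Gja5), 0.0032 (Gjc1), 0.076 (Tjp1), 0.22 (Pkp2) and 0.037 (Cdh2).

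Leaving out 1 library at a time, ranges that crossed 0 were, in the interaction, -0.070 to 0.39 (Cdh2), -0.019 to 0.36 (Dsg2), -0.11 to 0.40 (Dsp), -0.20 to 0.20 (Gja1), -0.43 to 0.068 (Pkp2) and -0.13 to 0.28 (Tjp1). In the knockout response they were -0.096 to 0.12 (Dsg2) and -0.12 to 0.24 (Tjp1), and in the floxed response -0.34 to 0.037 (Dsg2), -0.047 to 0.46 (Dsp) and -0.17 to 0.18 (Tjp1). The saline genotype difference gave -0.078 to 0.30 (Dsg2), -0.013 to 0.16 (Gjc1) and -0.12 to 0.29 (Tjp1), the isoproterenol one -0.15 to 0.097 (Gja4) and the mean -0.015 to 0.11 (Jup). Whole hearts gave -0.0089 to 0.16 (Dsg2), -0.21 to 0.041 (Pkp2) and -0.13 to 0.088 (Tjp1). Depth limits Gja5 most, and whole-heart directions carry labels that Panx1 went against.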
